A study of Homo sapiens with 12 samples.

Results

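SK-LMS-1 cells exposed to MK-0752 alone were compared with SK-LMS-1 cells exposed to DMSO, over all expressed genes. The libraries were chosen by their labels: 2 libraries of MK-0752 alone, named 2-2 and 2-3 after the numbers in their titles, and 4 libraries of DMSO, named 2-1, 2-3, 4-1 and 4-2. These are 6 of the 12 libraries of the series, which asked how uterine leiomyosarcoma (uLMS) cells respond to blocking Notch with or without chemotherapy. SK-LMS-1 is an established line, described in the labels as uterine leiomyosarcoma with a WT genotype, and both groups carry that genotype. MK-0752 is a small-molecule inhibitor of gamma secretase and was given at its IC30 for 72 hours, while the controls received the DMSO vehicle. A further pair of SK-LMS-1 libraries (4-1 and 4-2) came from cells given MK-0752 with gemcitabine and docetaxel, where the concentration of MK-0752 was lower than alone. According to the methods, a treatment was sequenced only where HES1 had fallen by qPCR, so the lower HES1 after MK-0752 described here is not an independent finding.

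Gamma secretase is a protease complex of the membrane that cuts the membrane stubs of many proteins after their outer part has been shed. When a Notch receptor is bound by a Delta or Jagged ligand on a neighbouring cell, this cut frees the receptor's intracellular domain, which joins RBPJ and a Mastermind protein in the nucleus and turns on genes such as HES1 and HEY1. An inhibitor of the protease therefore acts on every Notch receptor, and also on substrates outside the pathway such as APP, N-cadherin and LRP1.

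The 6 libraries held between 25585105 and 40709885 counts in genes, and the DMSO and MK-0752 ranges overlapped. Of 60649 genes in the table, 21114 had enough counts to be tested. Many covered genes were at exactly 0 in single libraries: among genes expected at 5 to 500 counts from their mean, 20.1% to 35.4% were at 0 in the DMSO libraries and 26.1% and 27.9% in those of MK-0752, so a value of 0 for one gene carries less weight than its depth alone would give. Mesenchymal VIM was at 11786 to 12855 CPM (counts scaled to a common library size) in the DMSO libraries and CALD1 of the contractile apparatus at 316 to 375 CPM, while the smooth muscle markers MYH11 and DES were at 0 in the 6 libraries and ACTA2 at 14.6 to 22.9 CPM in DMSO. MYOCD was at 0 in DMSO, and TAGLN, CNN1 and LMOD1 were at 37.0 to 46.4, 4.91 to 16.1 and 2.96 to 14.3 CPM there. Of epithelial markers, CDH1 was at 0 in the 6 libraries, while KRT8, KRT18 and KRT19 were at 97.4 to 109 CPM, 103 to 144 CPM and 5.86 to 13.4 CPM in DMSO and at 87.0 to 94.4 CPM, 64.3 to 72.3 CPM and 10.7 to 11.1 CPM after MK-0752. None of the 3 keratins was called by edgeR (adjusted p = 0.845, 0.325 and 1). The leukocyte marker PTPRC did not pass 0.471 CPM in DMSO or 1.32 CPM after MK-0752. In bulk RNA, fewer cells of one state and less RNA per cell cannot be told apart. The labels do not say whether libraries came from separate cultures, so p-values measure only the spread between these samples, which may be technical.

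A gene was called changed at an adjusted p under 0.05 (edgeR quasi-likelihood test, Benjamini-Hochberg) and a log2 fold change of at least 1 in size. By this rule 22 genes rose after MK-0752, which is 0.104% of the genes tested, and 52 fell, which is 0.246%. At the same adjusted p with no bound on the fold, 44 genes (0.208%) were higher and 82 (0.388%) lower. An unadjusted p under 0.05 was reached by 1826 genes, or 8.65% of the 21114 tested, the share against which the counts at an unadjusted p in the gene lists are read. In each of the 74 genes called, the MK-0752 libraries lay wholly above or wholly below the 4 DMSO libraries, as they did in 17.1% of all genes tested. Protein-coding genes made up 70 of them, and the other 4 were long noncoding RNAs. The median log2 fold change over all genes tested was 0.00.

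**Figure D1:**
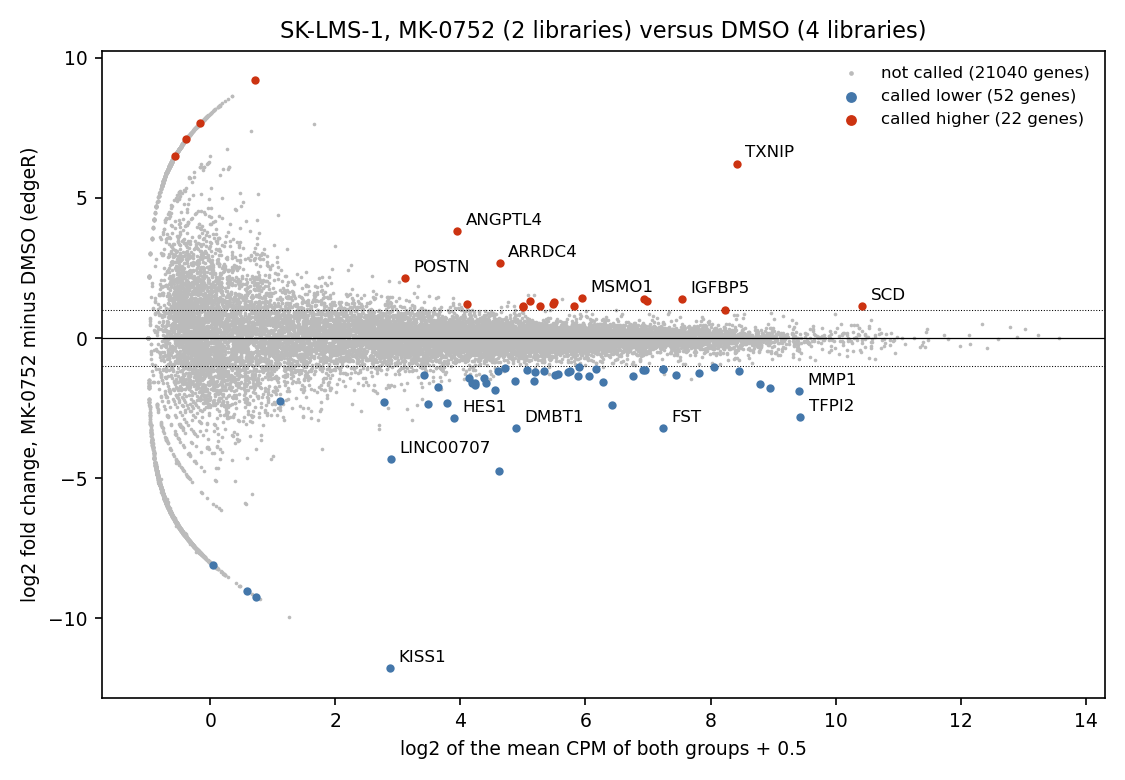
Each point is 1 of the 21114 genes tested, with the log2 of the mean CPM of both groups plus 0.5 on the x axis and edgeR's log2 fold change, MK-0752 minus DMSO, on the y axis. The 22 genes called higher are red, the 52 called lower are blue, dotted lines mark a log2 fold change of 1 in either direction. TXNIP lies at 6.22, and the curved rims at the left hold genes at 0 counts in one group.

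The gene with the largest increase among well-covered genes was TXNIP (ENSG00000265972.6, chr1:145992435-145996579, minus strand, hg38), which encodes an alpha-arrestin that restrains glucose uptake and binds thioredoxin. TXNIP was at 11.1, 8.55, 5.68 and 10.7 CPM in DMSO 2-1, 2-3, 4-1 and 4-2 and at 718 and 638 CPM in MK-0752 2-2 and 2-3. From here on values per library are given in this order, and CPM are scaled by edgeR's normalization factors. No DMSO library came within an order of magnitude of the treated ones, and TXNIP rose 74.8-fold (log2 fold change 6.22 ± 0.25, SE, adjusted p = 4.98e-09 by edgeR). ARRDC4, another alpha-arrestin, was at 5.87, 6.88, 4.14 and 9.46 CPM in DMSO and at 49.6 and 34.1 CPM after MK-0752. ARRDC4 rose by 2.66 ± 0.34 on the log2 scale (adjusted p = 0.000278 by edgeR). Both genes are well-known targets of MondoA and ChREBP, transcription factors that respond to sugar phosphates. Of 8 tested genes in the list of alpha-arrestins and these regulators, the other 6 were not called, and the list's median log2 fold change was 0.06, with -0.09 to 0.16 over the alternatives. ARRDC3 for example was at 101 to 144 CPM in DMSO and 158 and 148 CPM after MK-0752 (log2 fold change 0.39, adjusted p = 0.626 by edgeR).

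The promoters of these alpha-arrestin genes are shown because both genes moved together and MondoA and ChREBP bind E boxes (CACGTG) in pairs. Sequences are the 250 bases before the start of each gene, 5′ to 3′ on its strand, from RefSeq on GRCh38.p14, and capitals mark CACGTG found on either strand. The 300-base window from 250 bases before to 50 after the start held this motif in 7.26% of 35116 promoters.
ARRDC4: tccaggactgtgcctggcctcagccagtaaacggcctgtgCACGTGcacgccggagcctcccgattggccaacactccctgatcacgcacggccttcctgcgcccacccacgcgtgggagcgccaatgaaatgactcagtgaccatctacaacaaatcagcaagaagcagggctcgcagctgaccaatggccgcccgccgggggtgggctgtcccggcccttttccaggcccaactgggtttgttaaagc
TXNIP: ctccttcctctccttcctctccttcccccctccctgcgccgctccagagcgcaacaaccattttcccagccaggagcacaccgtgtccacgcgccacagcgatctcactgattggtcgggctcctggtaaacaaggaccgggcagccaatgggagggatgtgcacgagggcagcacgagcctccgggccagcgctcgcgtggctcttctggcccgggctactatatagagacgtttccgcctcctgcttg
The ARRDC4 window (chr15:97960453-97960702, plus strand) held 1 match, which began 210 bases before the start. The TXNIP window (chr1:145996580-145996829, minus strand) held no match, which says only that these 6 letters are not in that window. Only exact copies were searched, so E boxes that differ from CACGTG were not looked for in either gene.

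Genes of lipid handling were among those that rose. ANGPTL4, a secreted inhibitor of lipoprotein lipase and a target of the PPAR nuclear receptors, was at 0.487, 2.64, 2.11 and 2.7 CPM in DMSO and at 21.1 and 34.6 CPM after MK-0752. It rose by 3.81 ± 0.61 on the log2 scale (adjusted p = 0.00313 by edgeR), and against DMSO 4-1 and 4-2 alone the adjusted p was 0.0636, with the treated libraries still above every control. SCD, the desaturase that makes monounsaturated fatty acids, was at 826, 909, 828 and 866 CPM in DMSO and at 1902 and 1887 CPM after MK-0752. SCD rose by 1.14 ± 0.10 on the log2 scale (adjusted p = 2.28e-06 by edgeR), the smallest standard error among the genes named here as called. PLIN2, which coats lipid droplets, was at 18.1, 27.4, 21.1 and 29.1 CPM in DMSO and at 49.5 and 55.8 CPM after MK-0752. The difference of 1.14 was called (adjusted p = 0.0140 by edgeR) but was not without MK-0752 2-3 (adjusted p = 0.0784), against DMSO 2-1 and 2-3 alone (0.0583) or against DMSO 4-1 and 4-2 alone (0.105). The PPAR list as a whole had 29 of 32 genes tested. Of these, 3 were called higher (ANGPTL4, PLIN2 and TXNIP) and none lower, and the median log2 fold change was 0.40 against 0.00 over all genes. CPT1A, which admits fatty acids to mitochondria, and ECH1 of beta-oxidation were higher at an adjusted p of 0.0234 and 0.0250, with log2 fold changes of 0.76 and 0.97 that stayed under the fold threshold. In fatty acid synthesis and desaturation, SCD was called out of 23 genes tested, ACSL3 was higher below the fold threshold (log2 fold change 0.60, adjusted p = 0.0294), and the list's median was 0.09.

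Of the 26 genes in the list of sterol synthesis and uptake, all tested, 3 were called higher, 14 had an unadjusted p under 0.05 and 15 had MK-0752 libraries wholly above the DMSO libraries. Over all 21114 genes tested, these counts in the same direction were 22, 888 and 1995. In the sterol list the log2 fold change was positive in 25 and the median was 0.51, but LSS, CYP51A1, TM7SF2 and SCAP were at only 0.05, 0.09, 0.07 and 0.01. The median log2 shift of the list was 0.55 in both MK-0752 libraries and lay between -0.01 and 0.04 in the 4 DMSO libraries. INSIG1, the membrane anchor that holds the sterol-sensing SCAP complex in the endoplasmic reticulum, was at 53, 72.1, 59.0 and 87.0 CPM in DMSO and at 168 and 185 CPM after MK-0752 (log2 fold change 1.38 ± 0.18, adjusted p = 0.000424 by edgeR). MSMO1, a demethylase late in cholesterol synthesis, was at 40.2, 36.5, 17.7 and 38 CPM in DMSO and at 98.6 and 78.7 CPM after MK-0752. MSMO1 rose by 1.42 ± 0.26 on the log2 scale (adjusted p = 0.00751 by edgeR), and against DMSO 2-1 and 2-3 alone the adjusted p was 0.114. HMGCS1, which makes the precursor of mevalonate, was at 22.1, 21.6, 18.9 and 15.3 CPM in DMSO and at 58.3 and 38.9 CPM after MK-0752. MK-0752 2-2 was well above 2-3, and the call (log2 fold change 1.32 ± 0.24, adjusted p = 0.00694 by edgeR) was lost without MK-0752 2-2 (adjusted p = 0.171) and against DMSO 2-1 and 2-3 alone (adjusted p = 0.0966). FDFT1, squalene synthase, was higher at an adjusted p of 0.0410 with a log2 fold change of 0.65, under the fold threshold. The promoter windows of MSMO1, INSIG1 and HMGCS1 held no copy of TCACCCCA, a core of the sterol regulatory element, on either strand, against 1.54% of all promoters with one. That says only that these letters are not in these windows.

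**Figure D2:**
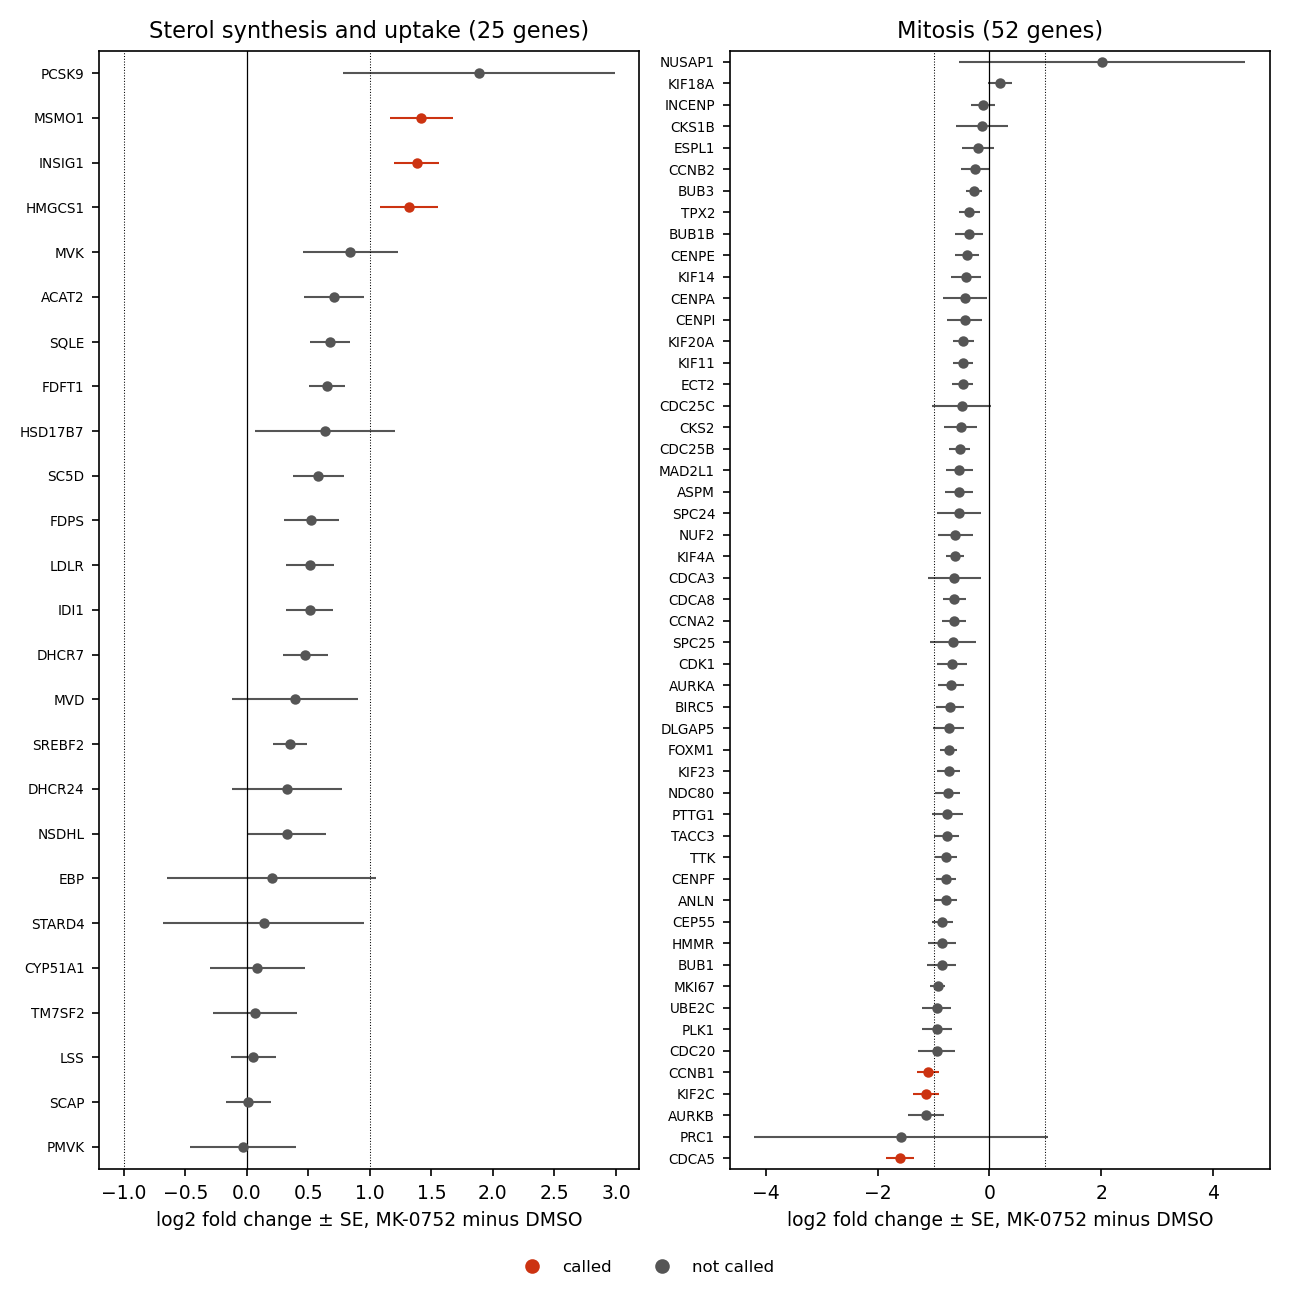
Points give edgeR's log2 fold change, MK-0752 minus DMSO, with its standard error for 25 of the 26 tested genes of sterol synthesis and uptake (left) and the 52 tested genes of mitosis (right), called genes in red. Of the sterol genes plotted 24 lie above 0 and of the mitosis genes 50 lie below 0, most of them within the dotted lines at a log2 fold change of 1.

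The remaining large increases were of several kinds. IGFBP5, a secreted binding protein of insulin-like growth factors, was at 129, 107, 91.0 and 82.3 CPM in DMSO and at 276 and 262 CPM after MK-0752 (log2 fold change 1.39 ± 0.16, adjusted p = 8.85e-05 by edgeR). POSTN, a matrix protein of the fibrous stroma, was at 5.33, 2.83, 1.14 and 2.64 CPM in DMSO and at 14.8 and 11.8 CPM after MK-0752 (log2 fold change 2.15 ± 0.43, adjusted p = 0.0179 by edgeR). The POSTN call was lost without DMSO 2-3 (adjusted p = 0.0805), without DMSO 4-2 (0.0873) and against DMSO 2-1 and 2-3 alone (0.229). LXN, an inhibitor of carboxypeptidases, was called at a log2 fold change of 1.32 (adjusted p = 0.00474), but not against DMSO 2-1 and 2-3 alone (0.0667). It overlaps GFM1 on the other strand, and how the counting treated strand is not given in the sources used here. The drug efflux pump ABCC3 (log2 fold change 1.3, adjusted p = 0.0118) was not called without DMSO 4-2 (adjusted p = 0.0553) or without MK-0752 2-3 (0.422). The transcription factor KLF11 (1.23, adjusted p = 0.0239) was not called without DMSO 2-1, 2-3 or 4-2, where its adjusted p was 0.0663, 0.0812 and 0.0680. The cytidine deaminase APOBEC3F (1.20, adjusted p = 0.0182) was not called without DMSO 2-3 (adjusted p = 0.0671) or without MK-0752 2-3 (0.266). NQO1, a quinone reductase, was named after its values were seen: it was at 25.5, 20.5, 17.7 and 14.3 CPM in DMSO and at 41.3 and 45.4 CPM after MK-0752 (log2 fold change 1.15, adjusted p = 0.00305 by edgeR). Against DMSO 2-1 and 2-3 alone the NQO1 fold was under the threshold (0.91).

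**Figure D3:**
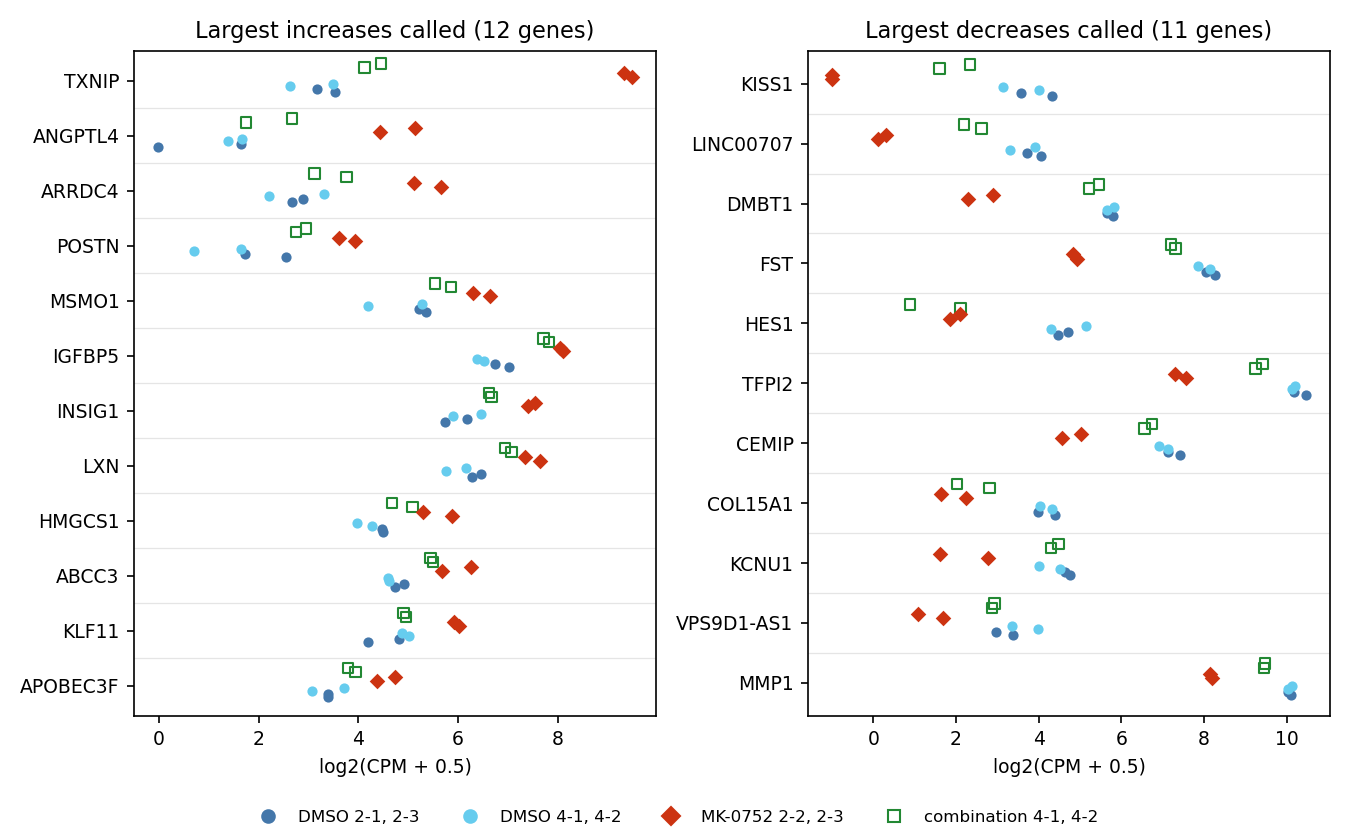
The largest increases (12 genes) and largest decreases (11 genes) among called genes with enough counts are plotted as log2(CPM + 0.5) per SK-LMS-1 library, with DMSO as filled circles, MK-0752 alone as diamonds and the combination with gemcitabine and docetaxel as open squares. In all 23 genes the diamonds stand clear of the circles, and for TXNIP they lie at 718 and 638 CPM against at most 11.1 CPM in DMSO.

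The deepest decrease reported here was in KISS1 (ENSG00000170498.9, chr1:204190341-204196491, minus strand, hg38), which encodes the kisspeptin precursor, first described as a suppressor of metastasis. Its counts were 675, 315, 386 and 318 in DMSO, and no read was counted in MK-0752 2-2 or 2-3. Taking 3 counts per library as the floor, KISS1 fell at least 165-fold (adjusted p = 0.000175 by edgeR). This floor covers counting error only, and the many covered genes at 0 in single libraries, given above, weaken the bound. Of the called genes reported here, 3 pairs lay within 200 kb of each other, a distance set after the values were seen. They were ARNT2 with CEMIP and PRSS2 with EPHB6, in each of which both genes were called lower, and KLF11, called higher, with RRM2, called lower. EPHB6 was not called without MK-0752 2-3 (adjusted p = 0.138), and PRSS2, a trypsinogen, has near-identical copies that can share its reads.

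Several genes of the cell surface and its surroundings fell strongly. FST, follistatin, the antagonist of activins, was at 309, 262, 283 and 231 CPM in DMSO and at 30.1 and 28.1 CPM after MK-0752 (log2 fold change -3.22 ± 0.18, adjusted p = 4.98e-09 by edgeR). TFPI2, an inhibitor of serine proteases in the matrix, was at 1412, 1144, 1116 and 1172 CPM in DMSO and at 188 and 157 CPM after MK-0752 (log2 fold change -2.81, adjusted p = 4.98e-09 by edgeR), and overlaps GNGT1 on the other strand. Both genes were several-fold lower in each treated library than in the lowest control. DMBT1, a scavenger receptor glycoprotein of mucosal surfaces, was at 55, 50.1, 49.8 and 55.7 CPM in DMSO and at 4.38 and 6.90 CPM after MK-0752 (log2 fold change -3.22 ± 0.30, adjusted p = 1.10e-05 by edgeR). CEMIP, which binds and breaks down hyaluronan, was at 169, 139.7, 139.9 and 120.5 CPM in DMSO and at 23.1 and 31.8 CPM after MK-0752 (log2 fold change -2.37, adjusted p = 6.90e-06 by edgeR). HAS2, which makes hyaluronan and was named after its values were seen, was at 353, 346, 277 and 287 CPM in DMSO and at 142 and 122 CPM after MK-0752 (log2 fold change -1.26, adjusted p = 0.000416 by edgeR). CEMIP and HAS2 act on the same polymer, but no list of hyaluronan genes was examined.

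The other large decreases were in genes of varied kinds. LINC00707, a long noncoding RNA, was at 16, 12.8, 9.41 and 14.5 CPM in DMSO and at 0.589 and 0.734 CPM after MK-0752 (log2 fold change -4.31 ± 0.72, adjusted p = 0.00573 by edgeR), and was not called without MK-0752 2-2 (adjusted p = 0.0646). KCNU1, a potassium channel best known from sperm, was at 26.3, 24.5, 22.5 and 15.6 CPM in DMSO and at 6.34 and 2.58 CPM after MK-0752 (log2 fold change -2.32 ± 0.45, adjusted p = 0.0190 by edgeR). With single libraries left out in turn, the KCNU1 log2 fold change ran from -3.10 to -1.81. The KCNU1 call was lost without DMSO 2-1 (adjusted p = 0.0553), DMSO 2-3 (0.0821) or MK-0752 2-3 (0.230). VPS9D1-AS1 was called at a log2 fold change of -2.28 (adjusted p = 0.00221) and lies across VPS9D1 on the other strand. Other called genes with an annotated gene on the other strand, whose reads may not be separate, included CEMIP, HAS2, INHBA, LIF, MMP1 and TCF7.

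The matrix list itself was divided. Of 46 tested collagens and matrix proteins, 1 was called higher and 3 lower, 5 were higher and 5 lower at the adjusted p alone, and the median log2 fold change was -0.05. COL15A1, a basement membrane collagen, was at 20.5, 15.3, 19.5 and 15.7 CPM in DMSO and at 4.24 and 2.64 CPM after MK-0752 (log2 fold change -2.37 ± 0.38, adjusted p = 0.00269 by edgeR). CCN2, the matricellular growth factor once called CTGF, was at 170.1, 161, 184 and 147 CPM in DMSO and at 77.6 and 72.3 CPM after MK-0752 (log2 fold change -1.14 ± 0.16, adjusted p = 0.000896 by edgeR). Against these, COL1A1, a chain of type I collagen, was at 676, 714, 772 and 709 CPM in DMSO and at 1278 and 1348 CPM after MK-0752, a rise under the fold threshold (log2 fold change 0.87, adjusted p = 0.000383 by edgeR). COL1A2, FBN1 and VCAN were also higher by 0.63 to 0.70, and FBN2 and LOX fell by 0.79 and 0.76. Among 26 matrix proteases and inhibitors the median was -0.45 and 1 gene was called. MMP2, a gelatinase of this list, was higher at a log2 fold change of 0.79 (adjusted p = 0.00113) and ADAMTS1 lower at -0.70 (adjusted p = 0.0129). MMP1, the interstitial collagenase, was at 1105, 1040.0, 1052 and 1109.8 CPM in DMSO and at 292 and 283 CPM after MK-0752. The groups lay far apart with little spread inside them (log2 fold change -1.90, adjusted p = 0.0397 by edgeR), yet the call was lost in each of the 6 fits that leave out 1 library, with an adjusted p of 0.0983 to 0.692. Its log2 fold change stayed between -1.93 and -1.88 in those fits, and with DESeq2 the adjusted p was 2.88e-103. CCN1 (log2 fold change -1.63, adjusted p = 0.0317) and STC1, the hypoxia-inducible stanniocalcin (-1.79, adjusted p = 0.0447), behaved the same way, with an adjusted p of 0.0635 to 0.692 and 0.0947 to 0.687 in those fits. Their log2 fold changes stayed between -1.68 and -1.60 for CCN1 and between -1.83 and -1.75 for STC1, and with DESeq2 the adjusted p was 6.28e-51 and 1.35e-69.

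Of the Notch pathway itself, HES1 (ENSG00000114315.4), a transcriptional repressor and the usual readout of Notch, was the 1 gene called. HES1 was at 21.5, 25.5, 19.1 and 34.8 CPM in DMSO and at 3.14 and 3.80 CPM after MK-0752, with a log2 fold change of -2.86 ± 0.47 (adjusted p = 0.00333 by edgeR). As stated above, this treatment had been chosen for sequencing by its HES1 level. The list of Notch target genes had 10 of 11 members tested, and all 10 had a negative log2 fold change, with a median of -2.61. With the 3 members that were at 0 in both MK-0752 libraries set to the bound that 3 counts allow, the median was -1.68. Over the alternatives the fitted median ran from -3.52 to -1.57, the latter against DMSO 2-1 and 2-3 alone. In that comparison HES2 and HES7 had positive log2 fold changes (1.46 and 0.11), HEYL had 0, and the rest stayed negative. Among the libraries compared, HEYL had counts only in DMSO 4-1 (21 counts) and DTX1 only in DMSO 2-3 (7 counts). On the log2(CPM + 0.5) scale the list's median shift was -0.74 and -0.95 in MK-0752 2-2 and 2-3 and lay between -0.27 and 0.27 in the DMSO libraries. Most of these genes were scarce: HEY1 was at 1.81 to 3.55 CPM in DMSO and at 1.65 and 0.625 CPM after MK-0752, NRARP at 1.43 to 3.16 and at 0.140 and 0.897 CPM, and HES4 at 0.344 to 7.59 and at 0.926 and 0.462 CPM. In HEY1 and NRARP the treated libraries lay below every control and in HES4 the groups overlapped, and none of the 3 was called (adjusted p = 0.920, 0.539 and 0.605 by edgeR). NOTCH3, a receptor that is also a Notch target, had 159, 91, 94 and 165 counts in DMSO and 41 and 0 after MK-0752 (log2 fold change -2.79 ± 0.99, adjusted p = 0.475 by edgeR). It passed the threshold only where MK-0752 2-2 was left out, which leaves the library at 0 counts (adjusted p = 5.89e-10), and where the filter on low counts was dropped (3.29e-06).

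The HES1 promoter is shown because HES1 was the called member of the pathway and RBPJ binds TGGGAA. It is printed as above (chr3:194135898-194136147, plus strand, RefSeq, GRCh38.p14), with TGGGAA on either strand in capitals.
HES1: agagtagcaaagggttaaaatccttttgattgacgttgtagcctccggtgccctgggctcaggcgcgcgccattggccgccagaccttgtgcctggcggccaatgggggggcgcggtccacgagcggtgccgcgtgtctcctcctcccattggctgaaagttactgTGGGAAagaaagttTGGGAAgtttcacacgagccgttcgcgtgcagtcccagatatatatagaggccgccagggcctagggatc
The 2 matches began 84 and 70 bases before the start, and 24% of all promoter windows held at least 1 match to these 6 letters.

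The receptors, ligands and nuclear partners of Notch did not shift as a list, with 13 genes tested, 0 called by edgeR, 1 called by DESeq2, 2 at an unadjusted p under 0.05 and a median log2 fold change of 0.00. The receptor NOTCH2 was at 574, 585, 516 and 584 CPM in DMSO and at 591 and 639 CPM after MK-0752 (log2 fold change 0.12, adjusted p = 0.866 by edgeR). NOTCH1 was at 35.3, 43.3, 31.3 and 41.2 CPM in DMSO and at 24.5 and 40.8 CPM after MK-0752, so that the groups overlapped. The ligand DLL4 was at 11.9, 14.7, 23.8 and 12.1 CPM in DMSO and at 2.24 and 1.85 CPM after MK-0752 (log2 fold change -2.93 ± 0.73, adjusted p = 0.0923 by edgeR). DLL4 was thus not called, although every treated library lay below every control. In fits to the 6 libraries compared or the 8 SK-LMS-1 libraries alone its adjusted p was 0.000328 and 5.13e-05, and with DESeq2 it was 2.05e-08. The ligand JAG1 was at 158, 174, 185 and 165 CPM in DMSO and at 127 and 117 CPM after MK-0752 (log2 fold change -0.49, adjusted p = 0.317 by edgeR), again below every control. Of gamma secretase, its sheddases and Notch modulators, 0 of 19 tested genes were called by edgeR or DESeq2 and 0 had an unadjusted p under 0.05 with edgeR. Of 16 tested substrates other than Notch, 0 were called by edgeR or DESeq2, and 5 had an unadjusted p under 0.05, among them LRP1 (log2 fold change 0.49) and SDC3 (0.59), both at an adjusted p of 0.101. DLL4, JAG1 and N-cadherin (CDH2) were named with their values known, and CDH2 was at 393 to 468 CPM in DMSO and at 456 and 460.1 CPM after MK-0752.

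**Figure D4:**
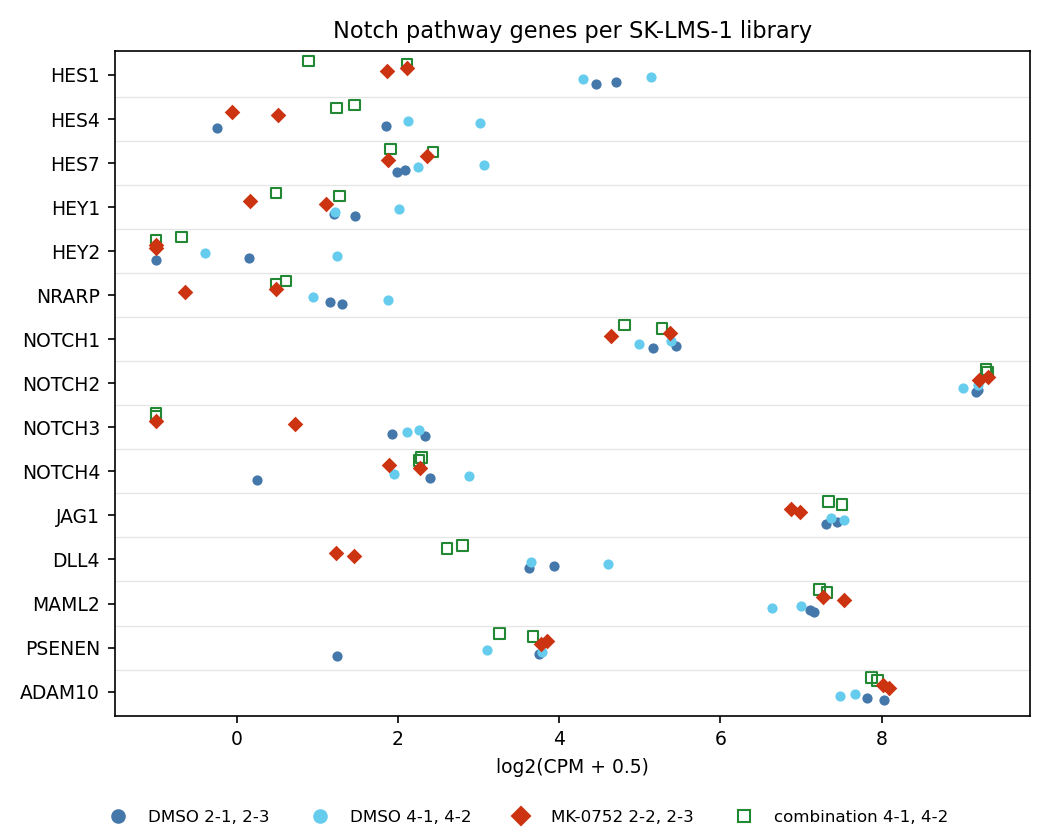
Notch target genes, receptors, ligands and gamma secretase genes are plotted as log2(CPM + 0.5) per SK-LMS-1 library, with DMSO as filled circles, MK-0752 alone as diamonds and the combination as open squares. HES1 and DLL4 show diamonds below all circles (at most 3.80 against at least 19.1 CPM for HES1), whereas NOTCH1 and NOTCH4 show overlap.

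Cell cycle genes mostly had negative log2 fold changes under the threshold. In the mitosis list all 52 genes were tested and 50 had a negative log2 fold change, with 3 called lower, 7 lower at the adjusted p alone and a median of -0.63. The median shift was -0.59 and -0.68 in MK-0752 2-2 and 2-3 and lay between -0.08 and 0.06 in the DMSO libraries. MKI67, the proliferation antigen, was at 350.0, 382, 397 and 355 CPM in DMSO and at 194 and 196 CPM after MK-0752 (log2 fold change -0.93 ± 0.13, adjusted p = 0.000762 by edgeR). CDCA5, sororin, which holds sister chromatids together, was at 35.7, 27.1, 23.2 and 23.3 CPM in DMSO and at 10.2 and 7.88 CPM after MK-0752 (log2 fold change -1.60, adjusted p = 0.00208 by edgeR). CCNB1, the mitotic cyclin B1, was at 97.5, 94.9, 101 and 94.0 CPM in DMSO and at 40.4 and 50.2 CPM after MK-0752 (log2 fold change -1.10, adjusted p = 0.00620 by edgeR). Without MK-0752 2-2 the CCNB1 difference fell short of the fold threshold (-0.95). The kinesin KIF2C was called at -1.13 (adjusted p = 0.0277) but not without DMSO 2-3 (adjusted p = 0.0638), DMSO 4-2 (0.0892) or MK-0752 2-2 (0.100). RRM2, the small subunit of ribonucleotide reductase, was at 211, 217, 199.5 and 198 CPM in DMSO and at 106 and 83.8 CPM after MK-0752 (log2 fold change -1.12, adjusted p = 0.000728 by edgeR), and the fold was just under the threshold without MK-0752 2-3 (-0.96). It was the 1 gene called among 34 of nucleotide synthesis, whose median was -0.30.

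DNA replication genes had a median log2 fold change of -0.43, with 41 of 47 tested genes negative, 19 of them at an unadjusted p under 0.05, and 0 called by edgeR or DESeq2. MCM5 of the replicative helicase was at 46.3, 61.0, 56.9 and 68.0 CPM in DMSO and at 34.5 and 32.0 CPM after MK-0752 (log2 fold change -0.80, adjusted p = 0.0925 by edgeR). Of 57 tested replication-dependent histones, 3 were called lower and the median was -0.57, while the DMSO libraries themselves ran from -0.28 to 0.26 around their mean. H3C8 was at 76.1, 62.7, 52.4 and 66.5 CPM in DMSO and at 26.1 and 25.5 CPM after MK-0752 (log2 fold change -1.32, adjusted p = 0.00694 by edgeR). H1-5 was called at -1.11 (adjusted p = 0.00221), with -0.97 without MK-0752 2-2, and H2BC11 at -1.07 (adjusted p = 0.0362). H2BC11 was not called without DMSO 2-3, DMSO 4-1, DMSO 4-2 or MK-0752 2-3 (adjusted p = 0.111, 0.0949, 0.121 and 0.239). Histone genes are near-identical copies whose reads the counting may split, so single members are uncertain. G1 cyclins, CDKs and their inhibitors had 0 of 23 called by edgeR or DESeq2, 6 at an unadjusted p under 0.05 and a median of -0.10.

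Further genes called lower act in signalling. LIF, a cytokine of the interleukin-6 family, was at 77.1, 92.7, 106 and 104 CPM in DMSO and at 29.5 and 44.3 CPM after MK-0752 (log2 fold change -1.36 ± 0.22, adjusted p = 0.00333 by edgeR). INHBA, the activin A subunit that follistatin binds, was at 358, 332, 362 and 378 CPM in DMSO and at 187 and 165 CPM after MK-0752 (log2 fold change -1.02, adjusted p = 0.00281 by edgeR), and its fold was under the threshold without DMSO 4-2 (-0.99) or MK-0752 2-3 (-0.94). These were the called genes of 28 tested cytokines and chemokines, whose median was -0.79, with -0.80 to -0.47 over the alternatives and -0.54 against DMSO 2-1 and 2-3 alone. The list's median log2 shift was -0.49 and -0.45 in MK-0752 2-2 and 2-3 and lay between -0.19 and 0.13 in the DMSO libraries. DUSP5, a phosphatase induced by and directed at ERK, was at 75.2, 80.3, 87.5 and 90.1 CPM in DMSO and at 32.3 and 33.4 CPM after MK-0752 (log2 fold change -1.34, adjusted p = 0.00620 by edgeR). DUSP6 and SPRY2, further feedback inhibitors of ERK signalling, fell by 0.91 and 0.85 (adjusted p = 0.00474 and 0.0294). The median of this list of 26 genes was -0.36. RGS2, which switches off G proteins, TCF7, a Wnt transcription factor, and SMOX, spermine oxidase, were called lower at -1.15, -1.75 and -1.56 (adjusted p = 0.00317, 0.00260 and 0.000416) and were named after their values were seen. In the list of ATF4 and unfolded protein response genes 31 of 34 were negative, the median was -0.40, and 0 were called by edgeR, 1 by DESeq2 and 11 at an unadjusted p under 0.05. The chaperones CALR and HSP90B1 fell by 0.75 and 0.71 (adjusted p = 0.00510 and 0.0110).

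The remaining lists held 0 or 1 genes called by edgeR. Cytosolic ribosomal proteins had 68 of 79 positive values but a median of only 0.14, with 0 called by edgeR or DESeq2 and 9 at an unadjusted p under 0.05. Respiratory chain genes of the nucleus had a median of 0.00 over 73 genes, with 0 called by edgeR or DESeq2 and 1 at an unadjusted p under 0.05. Mitochondrially encoded proteins had 10 of 13 positive values and a median of 0.31, with 0 called by edgeR or DESeq2 and 6 at an unadjusted p under 0.05, and the mitochondrial share of counts was 2.40% to 2.52% in DMSO and 2.81% and 3.09% after MK-0752. Its part in the other differences was not tested. Glucose uptake and glycolysis had 19 of 25 negative values, a median of -0.20 (-0.25 to -0.09 over the alternatives) and 0 called by edgeR or DESeq2, with 5 at an unadjusted p under 0.05. SLC2A1, the glucose transporter GLUT1, was at 149, 155, 129 and 159 CPM in DMSO and at 73.8 and 94.7 CPM after MK-0752 (log2 fold change -0.81, adjusted p = 0.0739 by edgeR). Targets of p53, the BCL2 family, lysosomal genes, interferon-stimulated genes and smooth muscle genes had 0 called by edgeR and medians of 0.02, -0.08, 0.02, 0.20 and -0.01. DESeq2 called 1, 0, 1, 1 and 0 genes of these lists, and 8, 3, 6, 2 and 5 had an unadjusted p under 0.05 with edgeR. The interferon-stimulated gene IFI44L was at 14.4, 19.5, 12.2 and 15.8 CPM in DMSO and at 42.2 and 33.4 CPM after MK-0752 (log2 fold change 1.29, adjusted p = 0.0814 by edgeR). GPNMB, a lysosomal membrane glycoprotein, was higher under the fold threshold (log2 fold change 0.87, adjusted p = 0.0307). The spliceosome list had 60 of 83 negative values and a median of -0.13, with 0 called by edgeR or DESeq2 and 14 at an unadjusted p under 0.05, of which 13 were lower. SRSF6, a splicing factor of this list, fell by 0.72 under the fold threshold (adjusted p = 0.0361). Hypoxia-inducible genes had a median of -0.06 over 25 genes, with STC1 the 1 gene called.

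**Figure D5:**
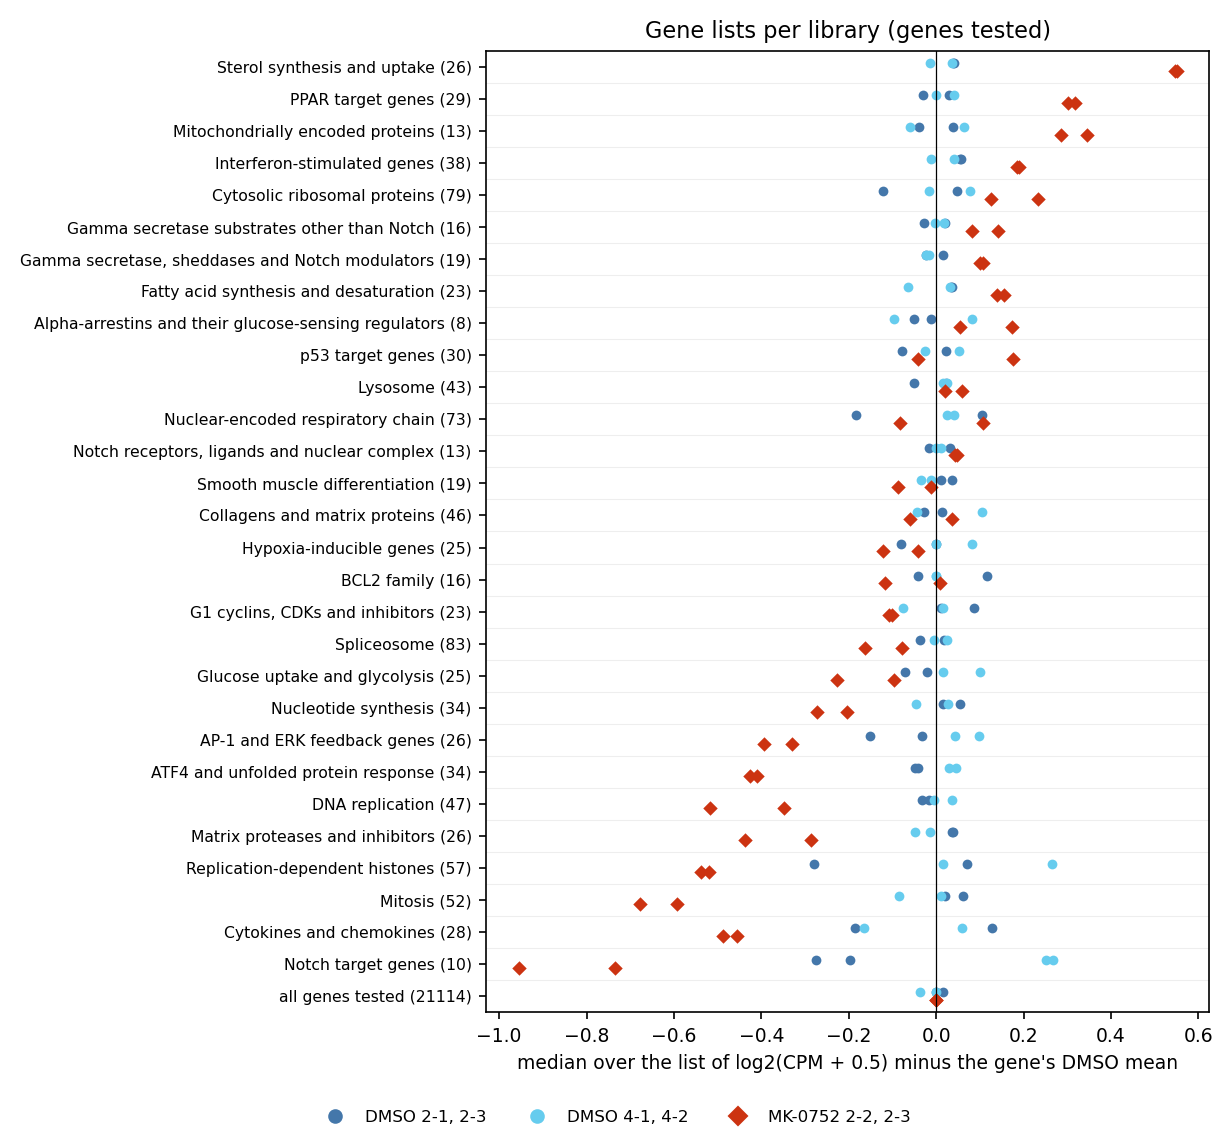
For each gene list, with the number of tested genes in brackets, the x axis gives the median over the list of log2(CPM + 0.5) minus each gene's DMSO mean, for every DMSO library (circles) and MK-0752 library (diamonds). Sterol synthesis lies at 0.55 in both MK-0752 libraries and mitosis at -0.59 and -0.68, while all genes tested lie at 0.00 in both.

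Genes at 0 counts in one group made up 8 of the 74 calls. Besides KISS1, the genes TEDC2, SPINT1 and PDF were at 0 in both MK-0752 libraries and at no more than 3.73, 1.84 and 3.53 CPM in DMSO, which makes them at least 28.1-fold, 12.6-fold and 24-fold lower. FOXP1-DT, SOX18, CREG1 and PCDH1 were at 0 in the 4 DMSO libraries and at no more than 2.50, 0.813, 0.842 and 0.533 CPM after MK-0752, which makes them at least 23.1-fold, 7.99-fold, 5.27-fold and 3.53-fold higher. These 7 genes were named after their values were seen. Of the 16 alternatives, PDF was called in 6 and SOX18 in 7, and FOXP1-DT was called in 7 of the 14 that tested it. The PDF call was lost without DMSO 2-3, DMSO 4-2, MK-0752 2-2 or MK-0752 2-3 (adjusted p = 0.0821, 0.0596, 0.186 and 0.150). The calls of FOXP1-DT and SOX18 were lost without DMSO 2-1, DMSO 2-3 or DMSO 4-2 (adjusted p = 0.0667, 0.0902 and 0.0892 for FOXP1-DT and 0.0676, 0.0954 and 0.0920 for SOX18), and that of PCDH1 without DMSO 4-2 (0.0583). In the fit to the 6 libraries compared, FOXP1-DT, PDF, SOX18, SPINT1 and TEDC2 were not called (adjusted p = 0.112, 0.105, 0.411, 0.392 and 0.0514). Values this low rest on few counts, floors cover counting error only, and single libraries held many covered genes at 0, as given above.

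The labels do not explain the first number of the titles, which is 2 in both MK-0752 libraries and 2 or 4 in DMSO, so MK-0752 was also compared with DMSO 2-1 and 2-3 alone. In this comparison 12 genes (0.0568%) were called higher and 41 (0.194%) lower, and 42 of the 74 calls were kept. Of the called genes named here, those lost on the adjusted p were ABCC3, APOBEC3F, CCN1, CREG1, EPHB6, FOXP1-DT, H2BC11, HMGCS1, KIF2C, LXN, MMP1, MSMO1, PCDH1, PDF, PLIN2, POSTN, SOX18 and STC1 (0.0583 for PLIN2 to 0.268 for SOX18), and those lost on the fold alone were INHBA (-0.97) and NQO1 (0.91). Against DMSO 4-1 and 4-2 alone ANGPTL4, APOBEC3F, CCN1, CREG1, FOXP1-DT, KCNU1, KLF11, MMP1, PCDH1, PDF, PLIN2, SOX18 and STC1 lost their calls (adjusted p = 0.0536 for PDF to 0.209 for SOX18). TXNIP, FST, KISS1, HES1, SCD, INSIG1 and IGFBP5 were among 25 genes called in every alternative of the fit that tested them. DMSO 4-1 and 4-2 against DMSO 2-1 and 2-3 gave 0 genes called by edgeR, 1197 at an unadjusted p under 0.05 and 2 called by DESeq2, against 53 genes called by edgeR and 1354 at an unadjusted p under 0.05 for MK-0752 with as many libraries a side. A replicate check of single calls gave 10 of 22 increases and 24 of 52 decreases that stayed called whichever library was left out.

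MK-0752 alone was also set directly against the combination, in a test of the difference between them that needs no DMSO library. Here 1 gene (0.00474%) was higher after MK-0752 alone and 11 (0.0521%) were lower. The gene that was higher was TXNIP, at 16.9 and 21.4 CPM in combination libraries 4-1 and 4-2, which made it 5.15 higher on the log2 scale after MK-0752 alone (adjusted p = 1.72e-06 by edgeR). Genes lower after MK-0752 alone than after the combination included DMBT1 (log2 difference -2.83), FST (-2.39), TFPI2 (-1.90), CEMIP (-1.87), LIF (-1.3), RGS2 (-1.12), ARNT2 (-1.05) and HAS2 (-1.03), at an adjusted p of 1.72e-06 to 0.0471 by edgeR. The ion channel TRPA1 was the 1 gene of these 12 not called against DMSO (log2 fold change -0.92 against DMSO and -1.12 against the combination, adjusted p = 0.0139 for the latter). KISS1 and TEDC2, at 0 after MK-0752 alone, completed the list, and KISS1 had 84 and 111 counts in the combination libraries. HES1 was at 3.82 and 1.35 CPM after the combination, overlapping the libraries of MK-0752 alone, and the log2 difference of 0.42 did not pass the test (adjusted p = 1 by edgeR). The concentration of MK-0752, the added drugs and the first number of the titles differ together between these groups and cannot be told apart.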

How the data were processed

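Gene counts of 12 libraries (rRNA-depleted, stranded, single-end) were used. Per the submitters' processing notes the authors trimmed reads with Trim Galore 0.3.7 and aligned them to hg38 with STAR 2.7.9a, and per the methods ribosomal reads were removed and STAR made the counts. The deposited values are raw counts per gene, with no normalization, and the notes name DESeq2 1.42.0 for the authors' tests. The gene annotation and the strand setting of the counting are not given in the sources used here, and 60463 of 60649 gene IDs matched GENCODE 44, which gave positions. No column was left unmapped (0 columns not used).

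Samples were grouped by their titles. Counts were tested with edgeR 4.0.16 in R 4.3.3 (TMM scaling, filterByExpr, robust quasi-likelihood test) on all 12 libraries in 5 groups, so that the SK-UT-1B line and the combination shared the estimate of the spread, with the contrast MK-0752 minus DMSO. Of the genes in the table, 30598 had 0 counts in every library. Calls used an adjusted p under 0.05 and a log2 fold change of at least 1 in size, the thresholds of the study. The procedure was run on simulated counts with changes placed in well-covered genes only. No zeros were added beyond the fitted spread, so the simulation does not cover the many zeros of these data. Alternatives were other controls, 6 or 8 libraries, DESeq2 1.42.0, DESeq2 size factors, other filters, a replicate block and leaving out each library (16 in all). A threshold on adjusted p alone was added after the data were seen.

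Named genes were the 12 largest changes in each direction among called genes whose higher group averaged 100 counts or more and whose groups did not overlap, the Notch genes, and from each of 29 gene lists the called members and those of smallest p. Others are marked as named after their values were seen. The comparison, the gene lists and the rule were chosen with earlier results of these data known. Members of the lists are described by counts and medians, without a test of the list. Promoter sequences came from RefSeq. Floors (3 counts per library, 0.0777 to 0.122 CPM) cover counting error only. A few genes chosen by this rule are not reported here, but stay in the counts and medians.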

Additional observations from a re-analysis of the deposited data

Results flagged for a closer look

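For 148 of the 150 named genes, the highest and the lowest of the 4 DMSO libraries were set against the other 3 by Dixon's ratio. The critical value for groups of 4 was used, which marks about 1 in 20 groups by chance, and 11 genes were marked. The groups of 2 were too small for this. DMSO 4-1 was the library apart in 5 genes: MSMO1 (17.7 CPM against 36.5 to 40.2), HEYL (0.852 CPM, with 0 in the others), NOTCH2 (516 against 574 to 585), ENO1 (1661 against 1324 to 1377) and CYC1 (43.9 against 59.4 to 61.9). DMSO 2-1 was apart in LPIN1 (85.0 against 92.1 to 93.0), CTPS1 (51.1 against 79.8 to 82.4) and ADAMTS1 (536 against 466 to 477). DMSO 2-3 was apart in DTX1 (0.254 CPM, with 0 in the others) and PSEN2 (0.471 against 0 to 0.0259), and DMSO 4-2 in TCF7 (25 against 15.7 to 17). MSMO1, ADAMTS1 and TCF7 were the genes of these with an adjusted p under 0.05 after MK-0752, and the MK-0752 libraries lay outside the whole DMSO range in each.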

How the results depend on the processing

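No call changed sign under any alternative. Of the 22 genes called higher and 52 called lower, the counts became 12 higher with DMSO 2-1 and 2-3 as the controls, 83 lower with the 6 libraries compared, 38 and 99 with the 8 SK-LMS-1 libraries, 39 and 155 with DESeq2, 103 and 157 with no filter beyond 1 count, and 44 and 82 with no bound on the fold, an alternative chosen after seeing the data. Leaving out each library in turn gave 15 to 43 higher (15 without DMSO 4-2, 43 and 40 without MK-0752 2-2 and 2-3) and 32 to 57 lower (32 without DMSO 2-3), and the cause was not tested. Where 1 MK-0752 library remains, it is assumed to vary like the other groups. The 6-library, 8-library and DESeq2 fits kept 65, 67 and 68 of the 74 calls. Between DMSO libraries the count of 0 became 2 with DESeq2 and 76 with no filter. Against the combination, 1 gene was higher, with 8 in the 8-library fit, 17 with DESeq2, 30 with no filter and 5 to 25 when leaving out a library, and 11 genes were lower, with 25, 55, 69 and 14 to 56 in the same order. Deviations of MK-0752 and DMSO 2-3, which share the full number, had a correlation of -0.0166. With 2 MK-0752 libraries the deviations of one mirror those of the other, so this value cannot show whether the title numbers pair the samples. With a replicate block on the last number, 16 genes were higher and 37 lower than in DMSO (48 of 74 calls kept) and 7 lower than after the combination. The 2 treated libraries, the many zeros in covered genes and the unknown strand setting limit what single genes of few counts can show.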
